A study of Mus musculus with 4 samples.

Results

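The nuclear genes of the oxidative phosphorylation complexes were described in a mouse line of ovarian cancer, BR5FVB1-Akt, with and without decitabine. Members were all table rows whose single gene symbol starts with Nduf, Uqcr or Atp5, is Cox followed by a digit, or is Sdha, Sdhb, Sdhc or Sdhd, and the row with the highest mean was kept for each gene. This gave 97 genes of the 22180 tested, 42 of complex I, 4 of complex II, 8 of complex III, 25 of complex IV and 18 of complex V. Of these, 79 encode structural subunits, 16 encode assembly factors that share the symbol stems (8 of complex I and 8 of complex IV), and Atp5c1-ps and Uqcrh-ps1 are pseudogenes. Another 10 genes of the same families, among them Cox6c, Ndufb2, Ndufb4, Ndufs6 and Uqcr10, appeared only on rows shared with another symbol and were left out. All 13 mitochondrially encoded subunits were not analysed here.

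Each of 4 samples, 2 untreated controls and 2 exposed to decitabine at 10 uM over 72 h, gave total RNA for 1 Affymetrix whole-transcript array (Mouse Gene 2.0 ST). All cells grew in DMEM with serum and antibiotics, and the labels name no vehicle for the controls and no genotype beyond the line's name. Replicates are labelled biological, but nothing says whether they came from separate cultures, and p-values here reflect only the variation among these 4 arrays. The table was taken to be on a log2 scale because its values run from 0.55 to 13, and every fold change is decitabine over control on that scale.

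The array medians over all 41345 rows were 4.60 for both controls and 4.60 and 4.66 for decitabine. Of 11 epithelial markers, Wt1 lay between 10.5 and 10.9 and Krt18 between 9.22 and 9.57 on the 4 arrays, while Epcam lay between 4.62 and 4.99 and Pax8 between 3.46 and 3.62. Of 8 fibroblast markers, Dcn lay between 11.7 and 11.8 and Col1a1 between 10.2 and 10.5, while Postn lay between 5.74 and 6.13 and Lum between 2.34 and 3.05. The summed log2 values of the 11 epithelial markers were 71.5 to 72.0 in control and 73.8 to 74.5 in decitabine arrays, and those of the 8 fibroblast markers 67.5 to 68.1 and 67.3 to 68.3. The sums were 35.8 to 37.1 and 37.1 to 37.5 for 9 leukocyte markers, 24.7 to 25.4 and 26.2 to 26.3 for 6 endothelial markers, and 28.6 to 29.3 and 28.7 to 29.3 for 6 muscle markers. No marker was listed at 0, a detection level was not set, and the part of these shifts in the results below was not tested. In bulk RNA, fewer cells of a type and less RNA per cell cannot be told apart.

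Oxidative phosphorylation makes ATP in the inner mitochondrial membrane. Complexes I (NADH dehydrogenase) and II (succinate dehydrogenase) pass electrons to ubiquinone, complex III passes them to cytochrome c and complex IV to oxygen. Complexes I, III and IV pump protons, and complex V, the ATP synthase, uses their return to make ATP. Apart from complex II, each complex joins nuclear-encoded subunits to a few encoded in mitochondrial DNA, and dedicated assembly factors build it. Decitabine is a cytidine analogue that traps DNA methyltransferases on replicating DNA and so lowers CpG methylation.

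CpG sites are the positions where that methylation lies, so promoter stretches of 5 members are shown with their CpG dinucleotides in capitals. Ndufa3, Ndufa13, Cox20 and Cox7a1 were the members called lower in both looser fits described below, and Cox7a2 is the broadly expressed counterpart of Cox7a1. Each is the 150 bases before the annotated start, 5′ to 3′ on the gene's strand, from RefSeq, build GRCm38.p6.
Ndufa3 (chr7:3617223-3617372, plus strand): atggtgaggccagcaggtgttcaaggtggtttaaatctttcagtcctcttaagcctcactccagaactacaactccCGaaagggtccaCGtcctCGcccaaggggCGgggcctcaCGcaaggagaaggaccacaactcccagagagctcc
Ndufa13 (chr8:69902021-69902170, minus strand): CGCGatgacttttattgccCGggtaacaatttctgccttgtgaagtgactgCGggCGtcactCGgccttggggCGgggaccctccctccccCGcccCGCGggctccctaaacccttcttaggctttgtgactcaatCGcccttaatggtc
Cox20 (chr1:178319003-178319152, plus strand): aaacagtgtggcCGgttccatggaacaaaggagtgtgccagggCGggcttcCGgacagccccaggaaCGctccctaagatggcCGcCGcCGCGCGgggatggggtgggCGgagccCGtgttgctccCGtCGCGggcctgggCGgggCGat
Cox7a1 (chr7:30184021-30184170, plus strand): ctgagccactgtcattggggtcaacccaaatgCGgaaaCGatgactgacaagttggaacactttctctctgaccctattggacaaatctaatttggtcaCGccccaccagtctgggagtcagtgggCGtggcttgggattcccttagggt
Cox7a2 (chr9:79759854-79760003, minus strand): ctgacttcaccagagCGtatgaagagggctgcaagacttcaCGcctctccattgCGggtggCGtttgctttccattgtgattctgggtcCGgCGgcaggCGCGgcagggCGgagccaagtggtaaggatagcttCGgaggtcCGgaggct
The stretch before Cox20 held 16 CpG sites, those before Ndufa13 and Cox7a2 11 each, that before Ndufa3 5 and that before Cox7a1 4. Methylation itself was not measured in these samples.

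A promoter window of 300 bases, 250 before to 50 after the start, was in the RefSeq table for 78 of the 97 members. The median window held 20 CpG sites, against 13 over 16918 genes with a window. The median was 21 for complex I, 25 for complex II, 15.5 for complex III, 19 for complex IV and 21 for complex V. The whole windows of Cox20, Cox7a2 and Ndufa13 held 29, 20 and 18 sites, and those of Ndufa3 and Cox7a1 held 11 and 7.

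The same windows were searched on both strands for letters bound by factors known at respiratory genes. The NRF1 letters GCATGCGC lay in 12 of 78 member windows (15.4%, against 4.07% of all 16918 genes), the GABP and ETS letters CCGGAAGT in 9 (11.5% against 5.64%) and the YY1 letters AAGATGGCG in 8 (10.3% against 2.175%). The Sp1 letters GGGCGG lay in 39 (50% against 49.6%) and the CREB letters TGACGTCA in 3 (3.85% against 2.64%). Among the members printed above, Ndufa3, Ndufa13, Cox20 and Cox7a2 held the Sp1 letters, and the window of Cox7a1 held none of the 5 motifs. These matches describe letters, not bound sites.

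Decitabine-treated cells had slightly lower values for most of these genes, with small differences. The log2 fold change was negative for 72 of the 97 members, where 49.3% of all genes tested had a negative one. The median was −0.05, against 0.00 over all genes, and the median of the members differed between replicate arrays with an SD of 0.03. The fold was under 1.5 in either direction for 96 members. Cox7a1, the muscle isoform of a complex IV subunit, was the exception at 1.53-fold lower.

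No member passed the threshold in limma without an intensity trend, at a Benjamini-Hochberg adjusted p under 0.05. The smallest adjusted p among the members was 0.183, for Ndufa3. Over all genes, 0.131% were called higher and 0.0135% lower. Without adjustment, 10 members were lower and 4 higher at p under 0.05, where 6.97% of all genes were lower and 7.34% higher. The 95% confidence interval of the fold change excluded a 2-fold difference for 96 members, all but Cox7b2, and a 1.5-fold difference for 80. Over all 22180 genes it excluded these for 21301 and 15369. Over the 11090 genes above the median level it did so for 10760 and 8502, and over the 85 members there for 85 and 73. With 2 arrays against 2, an exact two-sided permutation test of a gene cannot give less than 0.333.

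Arrays were called separated where both decitabine arrays lay on the same side of both control arrays. They were separated with decitabine lower for 37 members (38.1%, where 22.5% of all genes were) and with decitabine higher for 9 (9.28%, where 23.4% of all genes were). The members were brighter than most genes, with their median at the 79.4 percentile and 85 of them above the median gene level. Among the genes above that level, 37 of 85 members were separated lower (43.5%, against 30.0% of those genes) and 6 higher (7.06%, against 28.6%). The difference between members and other genes was not tested.

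With the prior variance of limma allowed to follow the level of a gene, 9 members were lower at an adjusted p under 0.05 and 0 were higher. Over all genes, 3.6% were called lower and 3.68% higher in that fit. All 9 lay above the median gene level, where 9 of 85 members (10.6%) and 7.08% of all genes were called lower. The 9 were Ndufa3, Ndufv3, Ndufa13 and Ndufa6 of complex I, Sdhc of complex II, Uqcrh of complex III, Cox20 and Cox7a1 of complex IV and Atp5d of complex V. In a fit without the trend, limited to genes brighter than the median, Ndufa3, Ndufa13, Cox20 and Cox7a1 were lower, 4 of the 85 members tested. There 5.55% of genes were called lower and 5.73% higher, the latter with 0 members. The count of 4 of 85 thus lay near the share of all genes.

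**Figure D1:**
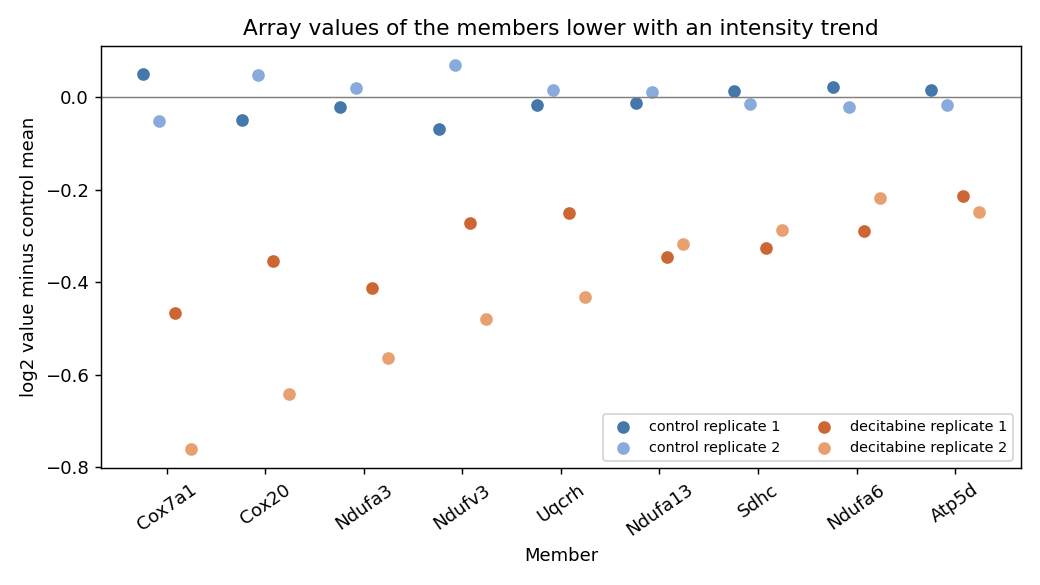
Log2 value minus the control mean (vertical axis) on each array for the 9 members that were lower in the fit with an intensity trend (horizontal axis), with a point for each of the 2 control and 2 decitabine arrays. Both decitabine points lie below both control points for each of the 9 members.

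Among the complexes, the median log2 fold change was −0.10 for complex I, −0.02 for complex II, −0.02 for complex III, −0.04 for complex IV and −0.08 for complex V. The median of a complex varied between replicate arrays with an SD of 0.04 for complex I, 0.03 for complexes II and III, 0.02 for complex IV and 0.05 for complex V. Arrays were separated lower for 20 of 42 members of complex I (47.6%), 2 of 4 of complex II, 2 of 8 of complex III, 6 of 25 of complex IV (24.0%) and 7 of 18 of complex V (38.9%). Complex I, the largest group, thus had the most members separated lower by number, while the share was 50% in complex II with its 4 members. Complex IV stood near the 22.5% of all genes and below the 30.0% of genes above the median level. Arrays were separated higher for 3, 0, 1, 3 and 2 members in the same order, where 23.4% of all genes and 28.6% of genes above the median level were. Members of a complex are not replicates, and no test was made between complexes.

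**Figure D2:**
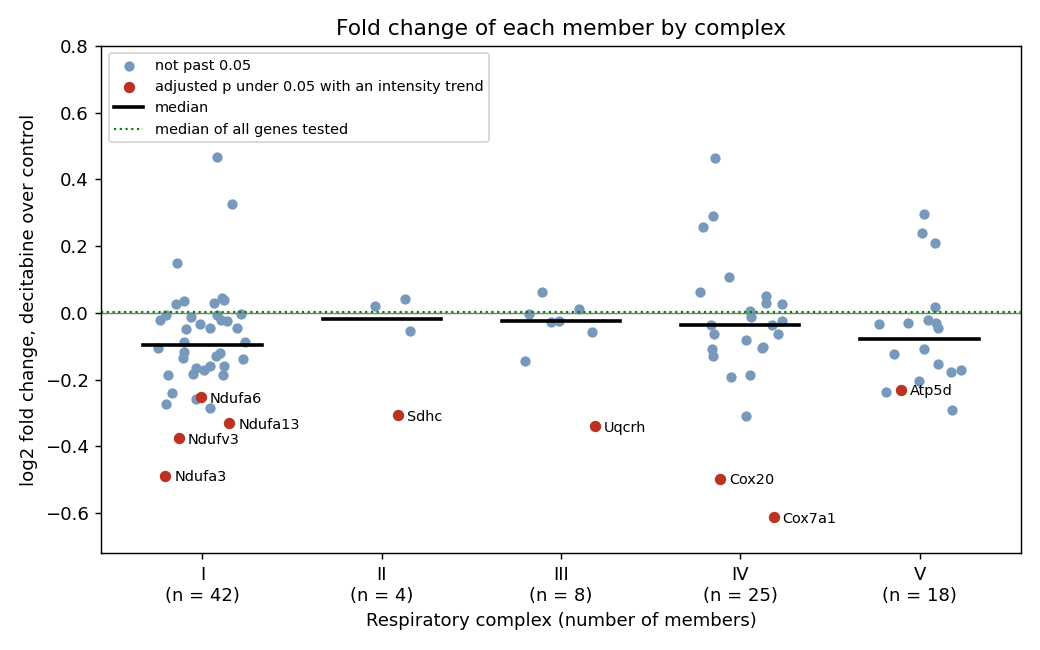
Log2 fold change, decitabine over control, of each of the 97 members by complex, with a line at the median of each complex, red points for the 9 members called with an intensity trend and a dotted line at the median of all genes. The points of every complex lie around 0, and the median lies at −0.10 for complex I and −0.08 for complex V.

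**Figure D3:**
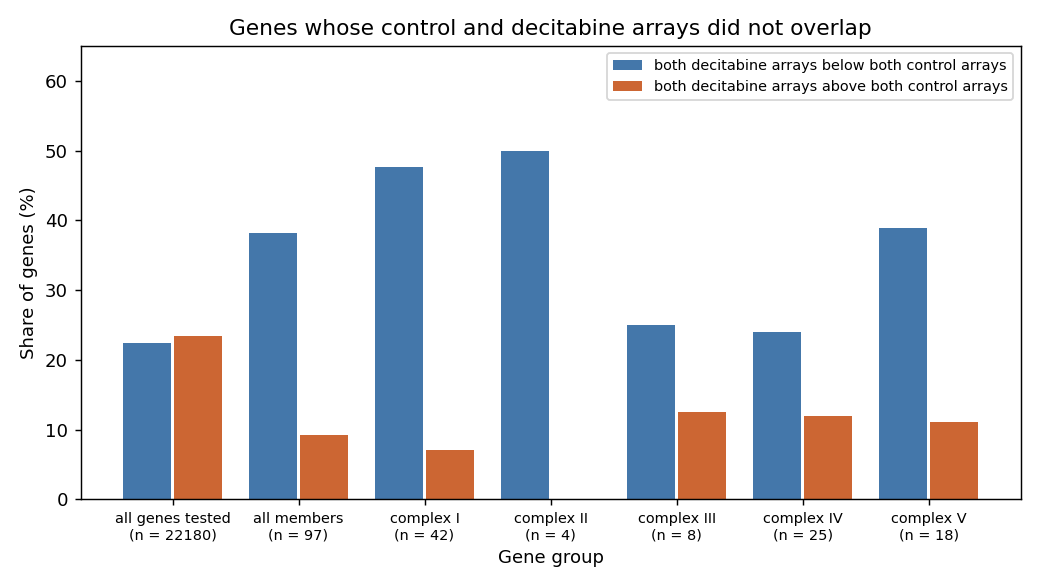
Share of members in percent, by complex, with both decitabine arrays below or both above both control arrays, beside the share over all genes. Complex I has 47.6% of its members lower, against 22.5% of all genes. The share among genes above the median level, which is not drawn, was 30.0%.

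The decitabine arrays differed in how far they lay below the controls. The median member stood at −0.05 against the control mean on replicate 1 and at −0.09 on replicate 2, while the median gene lay at 0.00 and 0.01. Above the median gene level, the median was −0.06 and −0.13 for members and 0.01 and −0.02 for all genes. Over all members of complex I the values were −0.05 and −0.14, for complex V −0.04 and −0.13, and for complex II 0.00 and −0.04. Complex IV stood at −0.05 on both arrays, and complex III at −0.08 and 0.00. By these medians replicate 2 was lower than replicate 1 for complexes I, II and V, and higher for complex III. The difference of replicate 2 from replicate 1, taken for each member, had a median of −0.09 in complex I and −0.07 in complex IV. That median was −0.02 in complexes II and V and 0.02 in complex III. Over members above the median gene level it was −0.06, against −0.03 over all genes above that level and −0.01 over all genes. Without decitabine replicate 2, the median of complex I was −0.05, and without decitabine replicate 1 it was −0.14. Over the fits without 1 array, complex V ran from −0.13 to −0.04, complex III from −0.08 to 0.00, complex II from −0.04 to 0.01 and all members from −0.09 to −0.05.

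**Figure D4:**
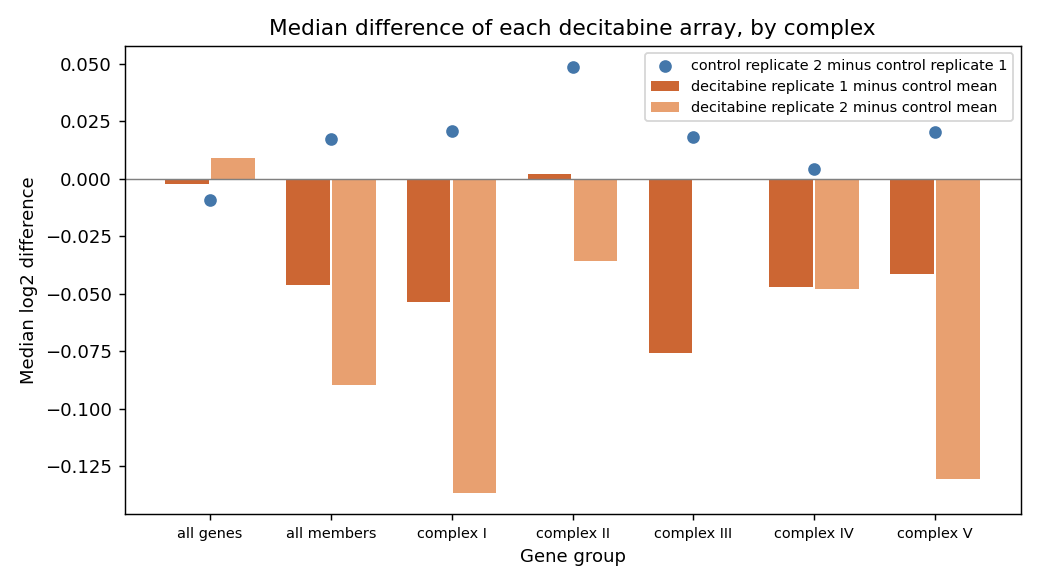
Median log2 difference of the members of each complex and of all genes tested, as bars for each decitabine array against the control mean and as points for control replicate 2 against control replicate 1. Complexes I and V lie at −0.14 and −0.13 on decitabine replicate 2 and at −0.05 and −0.04 on replicate 1.

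In complex I, the 26 accessory subunits, which surround the catalytic core, had a median of −0.12. Their arrays were separated lower for 15 (57.7%) and higher for 1, Ndufa9, at 0.04, where 22.5% and 23.4% of all genes were, and 30.0% and 28.6% of genes above the median level. Ndufa3 read 9.84 and 9.88 in the controls and 9.45 and 9.30 with decitabine. Ndufa13, also known as GRIM-19, read 9.33 and 9.35 against 8.99 and 9.02. Both groups stood apart for each gene, and the decitabine arrays of Ndufa3 lay further from each other than those of Ndufa13. Ndufa3 differed by −0.49 ± 0.11 (SE, n = 2 per group), with a Benjamini-Hochberg adjusted p of 0.183 in limma and 0.00161 with the trend. Ndufa13 differed by −0.33 ± 0.10, with 0.245 and 0.0095. Every SE given is from the fit without the trend. These were 1.40-fold and 1.26-fold lower levels.

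Ndufv3, an accessory subunit bound to the flavoprotein end of the complex, read 7.62 and 7.76 in the controls and 7.42 and 7.21 with decitabine. Ndufa6, a member of the LYR protein family, read 9.12 and 9.08 against 8.81 and 8.88. The groups did not overlap for either gene. Ndufv3 differed by −0.38 ± 0.12 (SE) with an adjusted p of 0.0476 in limma with the trend, and Ndufa6 by −0.25 ± 0.10 with 0.0456. Their adjusted p without the trend was 0.290 and 0.347. Ndufs4, at −0.27 ± 0.10, was separated lower with an adjusted p of 0.0902 with the trend, and is named after its values were seen.

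The other accessory subunits separated lower were Ndufa2, Ndufa8, Ndufa12, Ndufb3, Ndufb5, Ndufb7, Ndufb9, Ndufb10, Ndufc1 and Ndufc2. They were listed for their separated arrays, and none passed the adjusted threshold with or without the trend. The row of Ndufs5 alone was dim, at 2.67 and 2.57 in the controls and 2.64 and 2.89 with decitabine, below the 25th percentile of gene level (3.82). Its groups overlapped, and its difference was 0.15 ± 0.13 (SE). A row left out because Ndufs5 shares it with Ndufs5-ps read 6.88 and 6.79 against 7.12 and 6.77.

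The core subunits carry the flavin and the iron-sulfur clusters that take electrons from NADH to ubiquinone. The 6 measured here had a median of −0.03, and 1 of them, Ndufv2, was separated lower (16.7%, against 22.5% of all genes). Ndufv2, which holds an iron-sulfur cluster, read 9.15 and 9.24 in the controls and 9.05 and 9.03 with decitabine, a difference of −0.16 ± 0.10 (SE) that did not pass. Ndufv1, the subunit that binds NADH, read 8.66 and 8.68 against 8.83 and 8.59, with decitabine arrays on either side of the controls. The iron-sulfur subunits Ndufs1, Ndufs7 and Ndufs8 differed by −0.04 ± 0.10, −0.11 ± 0.11 and −0.02 ± 0.10, and Ndufs3, of the arm that reaches into the matrix, by −0.01 ± 0.10. In each of these 4 the groups overlapped. The adjusted p of the core subunits in limma without the trend was at least 0.534. The difference between accessory and core subunits was not tested.

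The 8 complex I assembly factors had a median of −0.09, with 3 separated lower (37.5%, against 22.5% of all genes), namely Ndufaf3, Ndufaf5 and Ndufaf7, and 1 higher (12.5% against 23.4%). Ndufaf4, an assembly factor, was the higher one, at 6.74 and 6.96 in the controls and 7.18 on both decitabine arrays. Its difference was 0.33 ± 0.12 (SE) with an adjusted p of 0.321 in limma and 0.0968 with the trend. Ndufaf3, at −0.29 ± 0.10, stood at 0.0950 with the trend, so neither passed.

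Ndufa4 was first described in complex I and is now placed in complex IV, and Ndufa4l2 is its relative known from cells short of oxygen. Ndufa4 read 10.5 on both control arrays and 10.4 on both decitabine arrays, a difference of −0.12 ± 0.10 (SE). Ndufa4l2 read 4.21 and 4.37 in the controls and 4.83 and 4.69 with decitabine. The arrays were separated in opposite directions for this pair. The Ndufa4l2 difference of 0.47 ± 0.12 was the highest of all members, with an adjusted p of 0.210 in limma and 0.153 with the trend. Its level lay below the median gene level (5.23).

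Complex II has 4 subunits, all encoded in the nucleus. Sdha binds the flavin, Sdhb holds the iron-sulfur clusters, and Sdhc and Sdhd anchor the complex in the membrane. Sdhc read 9.19 and 9.16 in the controls and 8.85 and 8.88 with decitabine. Its groups did not overlap, and the replicates of each group lay close together. The difference was −0.31 ± 0.10 (SE, n = 2 per group), 1.24-fold lower, with a Benjamini-Hochberg adjusted p of 0.268 in limma and 0.0165 with the trend.

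Sdha read 9.17 and 9.20 in the controls and 9.14 and 9.13 with decitabine, separated by a difference of −0.05 ± 0.09 (SE). Sdhb read 7.82 and 7.92 against 7.92 and 7.89, and Sdhd read 9.25 and 9.32 against 9.34 and 9.28, with overlapping groups. Their differences were 0.04 ± 0.10 and 0.02 ± 0.10. The 95% intervals ran from −0.30 to 0.19 for Sdha, from −0.21 to 0.30 for Sdhb and from −0.23 to 0.27 for Sdhd. Sdhc was thus the 1 subunit of the 4 called in any of these fits, and its difference from the other subunits was not tested.

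In complex III, the hinge protein Uqcrh, which helps cytochrome c to bind, read 7.77 and 7.80 in the controls and 7.53 and 7.35 with decitabine. The groups did not overlap. The difference was −0.34 ± 0.11 (SE), 1.27-fold lower, with an adjusted p of 0.289 in limma and 0.0497, close to the threshold, with the trend. Uqcrfs1, the Rieske iron-sulfur protein, read 6.72 and 6.93 against 6.71 and 6.65, a separated difference of −0.14 ± 0.12.

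The core protein Uqcrc2 was the 1 member of complex III separated higher, at 9.79 and 9.85 in the controls and 9.86 and 9.90 with decitabine. Its difference of 0.06 ± 0.10 (SE) did not pass. The other core protein, Uqcrc1, differed by −0.0041 ± 0.10, and the small subunits Uqcrb and Uqcr11 by −0.06 ± 0.14 and 0.01 ± 0.15. The groups of these 3 genes overlapped.

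In complex IV, the 9 accessory subunits found in most tissues had a median of −0.06 and 0 calls in limma with or without the trend, with 0 of them past an unadjusted p of 0.05. Cox4i1, a large subunit that regulates the complex, read 9.48 and 9.43 in the controls and 9.54 and 9.29 with decitabine. Cox5a read 9.10 and 9.02 against 9.09 and 9.09. Cox6b1 read 9.30 and 9.28 against 9.17 and 9.04. Of these, Cox6b1 alone had separated arrays, and its difference of −0.19 ± 0.10 (SE) did not pass. Cox8a, at −0.06 ± 0.10, was the other accessory subunit separated lower, which made 2 of the 9 (22.2%, against 22.5% of all genes). Cox6a1 differed by −0.04 ± 0.10, Cox7b by −0.19 ± 0.15, Cox4i1 by −0.04 ± 0.12 and Cox5a by 0.03 ± 0.10, all with overlapping groups.

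Several complex IV subunits have isoforms that are restricted to muscle, lung or testis. Cox7a1, the heart and muscle form of subunit 7a, read 6.65 and 6.54 in the controls and 6.13 and 5.84 with decitabine. Its broadly expressed counterpart Cox7a2 read 9.38 and 9.39 against 9.41 and 9.34. The groups were apart for Cox7a1 and overlapped for Cox7a2. Cox7a1 differed by −0.61 ± 0.14 (SE, n = 2 per group), 1.53-fold lower, the lowest value of all 97 members. Its Benjamini-Hochberg adjusted p was 0.187 in limma, 0.0172 with the trend and 0.0271 among genes above the median level. Cox7a2 differed by −0.01 ± 0.10, with a 95% interval from −0.26 to 0.24. Cox7a2l, a relative that joins complexes III and IV into supercomplexes, differed by −0.06 ± 0.11.

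None of the other restricted isoforms with Cox symbols was separated or passed. Cox7b2, known from testis, read 2.11 and 2.34 in the controls and 3.06 and 2.32 with decitabine, so its difference of 0.46 ± 0.26 (SE) rested on decitabine replicate 1. Cox8b, a heart and muscle form, read 3.90 and 4.07 against 3.41 and 4.29, a difference of −0.13 ± 0.30. These decitabine replicates differed more from each other than the groups did. Cox4i2, known from lung, differed by 0.05 ± 0.12, the heart and muscle form Cox6a2 by −0.02 ± 0.10, and the testis forms Cox6b2 and Cox8c by 0.01 ± 0.15 and 0.03 ± 0.12. The 6 muscle markers had a median difference of 0.13, with summed values that overlapped between the groups. Of these differences 4 were positive and 2 negative, those of Myh6 at −0.33 and Mylpf at −0.32. The part of the muscle markers in the Cox7a1 value was not tested.

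Of the 8 complex IV assembly factors, 3 were separated lower and 3 higher (37.5% each way, where 22.5% and 23.4% of all genes were). Cox20, which chaperones the newly made, mitochondrially encoded subunit COX2, read 9.02 and 9.12 in the controls and 8.72 and 8.43 with decitabine. Cox10, which makes the heme O precursor of the heme in complex IV, read 7.80 on both controls and 8.14 and 8.04 with decitabine. Cox18, which inserts COX2 into the membrane, read 7.84 and 7.80 against 8.06 and 8.09. The groups did not overlap for any of the 3, with Cox20 lower and the other two higher.

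Cox20 differed by −0.50 ± 0.13 (SE), 1.41-fold lower, with a Benjamini-Hochberg adjusted p of 0.234 in limma, 0.0091 with the trend and 0.0447 among genes above the median level. Cox10 differed by 0.29 ± 0.10 with an adjusted p of 0.306 in limma and 0.0540 with the trend. Cox18, named after its values were seen, differed by 0.26 ± 0.10 with 0.330 and 0.0777. Cox16, another assembly factor, read 6.26 and 6.50 in the controls and 6.28 and 5.86 with decitabine, a difference of −0.31 ± 0.18 with overlapping groups. Cox15 and Cox19 were the others separated lower and Cox17 the other separated higher.

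**Figure D5:**
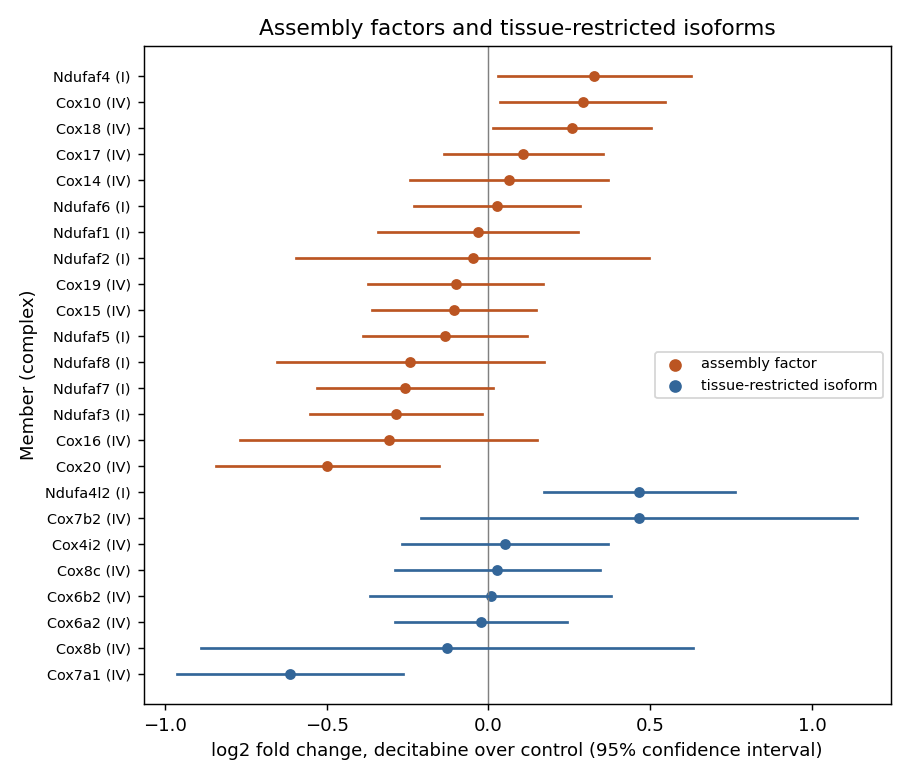
Log2 fold change with its 95% confidence interval for the 16 assembly factors and the 8 tissue-restricted isoforms, decitabine over control. Cox20 and Cox7a1 lie lowest, at −0.50 and −0.61, and Ndufa4l2 highest at 0.47.

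In complex V, Atp5d, the delta subunit of the central stalk in the catalytic F1 part, read 9.75 and 9.71 in the controls and 9.52 and 9.48 with decitabine. The groups did not overlap. Its difference was −0.23 ± 0.10 (SE), 1.17-fold lower, with an adjusted p of 0.370 in limma and 0.0399 with the trend. Another, dimmer row of Atp5d read 8.66 and 8.58 against 8.59 and 8.56, with overlapping groups and a difference of −0.04. The catalytic beta subunit Atp5b lay between 11.97 and 12.03 on all 4 arrays, with overlapping groups and a difference of 0.02 ± 0.10. The F1 part as measured had 5 members with a median of −0.03, of which Atp5d alone was separated (20%, where 22.5% of all genes were separated lower).

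The c ring, which turns as protons pass, is built from a single protein encoded by Atp5g1, Atp5g2 and Atp5g3. Atp5g2 read 11.13 and 11.10 in the controls and 10.94 and 10.95 with decitabine. Atp5g3 read 8.95 and 9.06 against 8.83 on both decitabine arrays. Atp5g1 read 6.82 and 6.93 against 6.62 and 6.91. All 3 differences were negative, at −0.17 ± 0.09, −0.18 ± 0.10 and −0.11 ± 0.14 (SE). The arrays were separated for Atp5g2 and Atp5g3, where 22.5% of all genes and 30.0% of genes above the median level were separated lower. Without decitabine replicate 1, the Atp5g1 difference turned to 0.04. None passed, and Atp5g2 came closest with an adjusted p of 0.0593 in limma with the trend.

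Of the 4 subunits of the peripheral stalk, which holds the F1 part still, Atp5h, Atp5j and Atp5pb were separated lower, at −0.20 ± 0.11, −0.15 ± 0.10 and −0.05 ± 0.10 (SE). The fourth, Atp5o, read 5.18 and 4.79 in the controls and 5.10 and 5.35 with decitabine, a difference of 0.24 ± 0.17 with overlapping groups. For comparison, 22.5% of all genes and 30.0% of genes above the median level were separated lower. Among small membrane subunits, Atp5mpl read 7.33 and 7.35 against 7.22 and 6.89, separated lower by −0.29 ± 0.14. Atp5k differed by −0.24 ± 0.16 with overlapping groups. Atp5j2, a dim row at 4.93 and 4.85 against 5.11 and 5.09, was separated higher at 0.21 ± 0.10. The pseudogene Atp5c1-ps was also separated higher, at levels between 1.76 and 2.29. None of these passed in limma with or without the trend.

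Of the 97 members, 9 had more than 1 row. The rows of Atp5d differed by −0.23 (mean level 9.61) and −0.04 (8.60), those of Cox5b by −0.08 (9.98) and 0.11 (5.01), and those of Cox7b by −0.19 (8.71) and 0.01 (4.48). Ndufa12 had rows at −0.13 (6.26) and 0.10 (5.95). The separated arrays of Atp5d, Ndufa8 and Ndufa12 were seen on the row with the higher mean only. The rows of Atp5e, Atp5g2, Atp5h, Ndufa8 and Ndufa11 had the same sign. Many of these genes have processed copies elsewhere in the genome, and which copy a row measures is not given in the sources used here. The 11 rows shared with another symbol differed by −0.12 and −0.07 for Cox6c, −0.18 for Ndufb2, −0.12 for Ndufb4, −0.05 for Uqcr10, −0.06 for Cox11 and 0.07 and −0.19 for Ndufs6. The shared rows of Ndufs5, Ndufs1 and Uqcrb stood at 0.11, 0.13 and −0.13.

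Genes that work beside the complexes were set next to them. Of 38 assembly factors outside the symbol rule, 35 were measured, with a median of −0.02. With the trend 1 was lower and 2 higher, where 3.6% of all genes were called lower and 3.68% higher. Sdhaf4, an assembly factor of complex II, read 6.86 and 6.92 in the controls and 6.45 and 6.30 with decitabine, a difference of −0.52 ± 0.11 (SE) with an adjusted p of 0.170 in limma and 0.0158 with the trend. Sco1, which brings copper to complex IV, read 6.39 and 6.48 against 6.82 and 6.87, at 0.41 ± 0.10. The groups did not overlap for either gene, in opposite directions. The other higher one was Higd1a at 0.41 ± 0.11, which like Atpif1, Slc25a5, Pdhx, Idh3a and Hspa9 below is named after its values were seen.

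Among 22 electron carriers and feeders the median was −0.03, with 1 lower and 2 higher in the trend fit. Cycs, cytochrome c itself, and the ADP/ATP carrier Slc25a5 were higher at 0.30 ± 0.12 and 0.20 ± 0.10 (SE). The ATP synthase inhibitor Atpif1 was lower at −0.25 ± 0.10, while Coq8a, which acts in ubiquinone synthesis, differed by −0.39 ± 0.13 and did not pass. Among 18 genes of the TCA cycle the median was 0.03, with 2 lower and 2 higher. Suclg2, of the GTP-forming succinyl-CoA ligase, was the lowest at −0.56 ± 0.10, and the NADP-linked isocitrate dehydrogenase Idh2 was lower at −0.37 ± 0.11. Pdhx of the pyruvate dehydrogenase complex and Idh3a of the NAD-linked isocitrate dehydrogenase were higher at 0.32 ± 0.09 and 0.31 ± 0.10. Over all genes 3.6% were called lower and 3.68% higher in that fit.

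Of 20 regulators of mitochondrial biogenesis, 1 passed in limma without the trend, where 0.131% of all genes were called higher and 0.0135% lower. The gene that passed was Myc, at 6.58 and 6.81 in the controls and 8.18 and 8.17 with decitabine. Myc differed by 1.48 ± 0.12 (SE) with an adjusted p of 0.0442 in that fit. The call was lost with robust eBayes, with the replicate number as a block, over all rows and without any of the 4 arrays in turn. Robust eBayes called 0.0676% of all genes higher, and in each of the other settings 0 genes of the whole table were called. Tfb1m, which methylates mitochondrial ribosomal RNA, was lower in the trend fit at −0.34 ± 0.10, where 3.6% of all genes were called lower. The median of the list was 0.05. Of 23 import genes the median was 0.08, and 11 were separated higher and 2 lower (47.8% and 8.70%, where 23.4% and 22.5% of all genes were). In the trend fit 1 of them, the matrix chaperone Hspa9, was higher at 0.18 ± 0.10, where 3.68% of all genes were called higher. Timm50 and Timm10 of the inner-membrane import machinery differed by 0.25 ± 0.10 and 0.26 ± 0.10 and did not pass. The 71 mitochondrial ribosomal proteins had a median of 0.00 with 15 separated lower and 20 higher (21.1% and 28.2%, near the shares of all genes), and 0 passed in limma with or without the trend, including at an unadjusted p under 0.05 without it. The lowest of them by p-value, Mrpl34 and Mrps34, differed by −0.26 ± 0.10 and −0.28 ± 0.11.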

How the data were processed

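The deposited values, 1 for each row and array, were taken as log2 expression from their range; the authors' log base, summarisation, background correction and normalization are not given in the sources used here. Per the labels' protocols, a whole-transcript kit was used for the biotin labelling. Scanner files were not analysed here, so no detection level was set, and the number of arrays limits the precision. Of 41345 rows, 23521 carried 1 gene symbol, 1814 several and 16010 none here. Rows with 1 symbol gave 22180 genes, each by its row of highest mean. A RefSeq table (GRCm38.p6) gave chromosomes and promoter windows.

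Groups came from sample titles. The test was two-sided, from lmFit and eBayes of limma 3.58.1 (R 4.3.3), with no intensity trend and no term but group, adjusted by Benjamini-Hochberg over all genes, with a threshold of 0.05. Alternatives were quantile normalization, arrays centred on their median, filters on level (above the 25th percentile, or above the median), an intensity trend, robust eBayes, a replicate block, averaging of rows per gene, every row, and omission of each array. The fit was tested on simulated data. Figures used Python 3.11.15 and matplotlib 3.10.9. Members, lists and tests were chosen with earlier results of these data known.

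Named members were those past an adjusted p of 0.05 in the fit with or without the trend, the 3 highest and 3 lowest structural subunits of complexes I, III, IV and V, complex II, the isoform sets, the core subunits of complex I, the 2 highest and 2 lowest assembly factors, and the 2 genes of smallest p-value in each of 6 other lists. In the epithelial list, the markers of smallest p-value were Msln and Krt8, with log2 differences of 0.86 and 0.53. They were Pdgfra and Postn for fibroblasts (−0.28 and 0.28) and Itgam and Nkg7 for leukocytes (0.50 and −0.29). For endothelium they were Kdr and Cdh5 (0.38 and 0.43), and for muscle Myh6 and Actn2 (−0.33 and 0.21). Of the 11 epithelial markers 9 differences were positive and 2 negative, those of Wt1 at −0.28 and Muc16 at −0.43. The median log2 differences of the 5 marker lists, in the order above, were 0.28, −0.03, 0.16, 0.14 and 0.13.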

Additional observations from a re-analysis of the deposited data

How the results depend on the processing

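Against 0 members called, 9 of 97 members were lower with an intensity trend, where 3.6% of all genes were. Among genes above the median level 4 of 85 were lower, where 5.55% of those genes were. At an unadjusted p under 0.05 in limma without the trend, 10 members were lower and 4 higher, where 6.97% and 7.34% of all genes were. Counts of other lists moved too, in either direction, apart from the 71 mitochondrial ribosomal proteins, which stayed at 0 in every fit. With the trend and among genes above the median level, 2 assembly factors outside the symbol rule were higher and 1 lower. In each of these settings 1 biogenesis regulator was lower. Electron carriers had 2 higher and 1 lower with the trend, and import genes 1 higher, while both lists had 0 calls among genes above the median level. TCA genes had 2 higher and 2 lower with the trend, and 1 higher and 1 lower among genes above the median level. With the trend 3.68% of all genes were called higher and 3.6% lower. The shares among genes above the median level were 5.73% and 5.55%. The call of Myc was lost (0 higher) under robust eBayes, the replicate block, all rows and each array left out (0 to 0), settings that, apart from robust eBayes, called 0 of all genes. By the labels, same-numbered arrays share a replicate number, and whether they were prepared together is not given. Their deviations from group means correlated at −0.02 over all genes and at −0.19 over the members. The fit with the replicate block called 0 members and 0 of all genes, with a smallest adjusted p among members of 0.256. With each array left out, the member median ran from −0.090 to −0.046, that of complex I from −0.137 to −0.054, of complex III from −0.076 to 0.00023 and of complex V from −0.131 to −0.042. Among genes above the median level the median was −0.082 for all members, −0.063 for complex IV and −0.124 for complex V, and complex IV also stood at −0.063 with centred arrays and above the 25th percentile. Members separated higher numbered 4 among structural subunits (5.06%, against 23.4% of all genes). In counts added after seeing the data, with an array left out, 18 to 23 were separated higher (35.2% to 39.6% of all genes) and 46 to 58 lower, with 58 without decitabine replicate 1 (36.6% of all genes). Of 51 named members, none of them called without the trend, 20 had a value of the other sign under some alternative. The causes were not tested.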
